A study of Rattus norvegicus with 30 samples.

Results

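Across the autosomes of 30 rat prefrontal cortex (PFC) libraries, 387 regions carried a DNA methylation (DNAm) peak in most animals exposed to alcohol before birth and in few animals of either comparison group. Peaks of all libraries that shared at least 1 bp were merged into 604866 regions. A region was counted as gained only after prenatal alcohol exposure (PAE) when 7 or more of the 10 PAE libraries, at most 3 of the 10 control (CON) libraries and at most 3 of the 10 pair-fed (PF) libraries had a called peak in it. The gained regions made up 0.064% of the merged regions and 0.11% of the 352026 regions with a peak in 3 or more libraries, which are called the tested regions. The regions were chosen by the presence of called peaks in the 3 groups, so their higher call rate and height in PAE animals follow from the choice and are described without a test.

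The libraries came from methylated DNA immunoprecipitation followed by sequencing (meDIP-seq) of bulk PFC from outbred Sprague-Dawley rats on postnatal day 22. PAE dams drank a liquid diet in which ethanol gave 36% of the calories (6.37% v/v). PF dams received the liquid diet with maltose-dextrin in place of ethanol, in the amount that a PAE partner ate, and CON dams ate a pelleted form of the control diet without restriction. All 3 diets were given from gestation day 1 to 21, each group holds 5 litters, and each litter gave 1 animal labelled female and 1 labelled male. PAE and PF animals thus share a liquid diet that CON animals did not have, and litter mates share a dam and are not independent.

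In meDIP-seq an antibody against 5-methylcytosine pulls down methylated fragments, so a peak marks a stretch of genome where methylated fragments pile up above their surroundings. DNAm at cytosines next to guanines is laid down and kept by DNA methyltransferases, and in the developing cortex it is associated with gene silencing at promoters and with cell type identity at distal elements. In bulk tissue a higher peak cannot be told apart from a larger share of cells that carry the mark. The height of a peak is its highest coverage by fragments, scaled here to 1000000 filtered fragments of the library, and libraries had between 11548314 and 16555049 such fragments. A library without a called peak has no measured height below the calling threshold, so its value was set to a common floor of 0.438.

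Some facts of the libraries bear on the values that follow. Peaks on the sex chromosomes went against the labelled sex in 18 of 30 libraries. In 23 libraries the X share of peaks was 0.774 to 1.15% with 38 to 87 Y peaks. In 7 libraries the X share was 2.65 to 3.14% with only 4 to 11 Y peaks. In the PAE group 4 libraries labelled female and all 5 labelled male had the low share on X, so every split by sex below is a split by label. The high share on X fell unevenly over the groups. In PAE it was found only in the animal labelled female of litter E1. In CON it was found in the animals labelled male of C44 and C46. In PF it was found in the animal labelled female of PF28 and in those labelled male of PF22, PF24 and PF26. Group comparisons below used at most the label, and the part of this unevenness in them was not tested. Autosomal peaks per library ranged from 103898 to 189772 in PAE, from 113946 to 184391 in PF and from 117648 to 208631 in CON animals. The labels place the libraries on 5 sequencing chips, of which chip 7 holds no PAE library and chip 4 no PF library.

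The number of gained regions was set beside the same count in the other groups and under relabelled litters. By the mirrored rule, 1054 regions were gained only in CON and 709 only in PF animals, so PAE had the fewest regions of its own by this rule over all 30 libraries. The 15 litters can be assigned in 378378 ways to 1 group of 5 and a pair of interchangeable comparison groups of 5, with litter mates kept together, and these gave between 231 and 4518 such regions for a group, with a median of 570. As many as 387 or more arose under a share of 0.91 of them (exact permutation test over litters, one-sided p = 0.91, 0.91 after Benjamini-Hochberg adjustment over 6 counts). The count of 387 thus lay below the median of the relabellings, and 9.01% of them gave fewer.

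**Figure D1:**
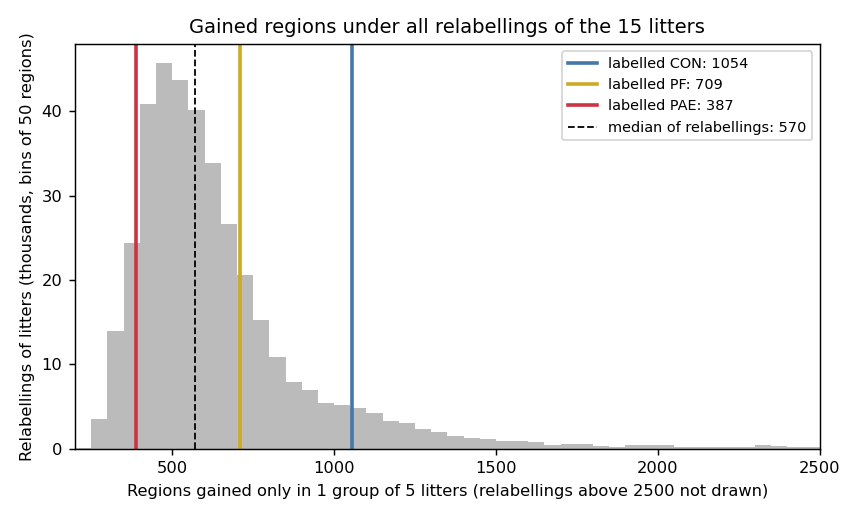
Distribution of the number of regions gained only in 1 group over all relabellings of the 15 litters, in bins of 50 regions (x axis, number of regions, and y axis, relabellings in units of 1000). Coloured lines mark the labelled groups and the dashed line the median of 570; the PAE line at 387 lies left of it, and the PF line at 709 and the CON line at 1054 lie right of it.

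For CON the one-sided p was 0.0869 and for PF 0.268 (exact permutation tests over litters), adjusted to 0.261 and 0.536. The opposite pattern, a peak in at most 3 PAE libraries and in 7 or more of each other group, was found at 743 regions, against a median of 365 over the relabellings (exact permutation p = 0.0496, adjusted p = 0.261). For CON and PF this count was 351 and 316, with exact permutation p of 0.545 and 0.656, each adjusted to 0.787. PAE libraries also had the fewest autosomal peaks on average, 135828 ± 26490 against 143998 ± 19300 in PF and 151576 ± 26760 in CON (SD, n = 10 each), and the part of this in the counts was not tested.

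The gained regions sat close to the threshold that chose them. No region was called in all 10 PAE libraries, 10 were called in 9, 67 in 8 and 310 in 7. Of the CON libraries, 3 had a peak at 211 regions, 2 at 123, 1 at 42 and none at 11. The PF libraries gave nearly the same profile, with 3 peaks at 197 regions, 2 at 122, 1 at 57 and none at 11. No gained region lacked a peak in every CON and PF library, and 10 had at most 2 such peaks in both groups together. Just inside the threshold, with 7, 3 and 3 called libraries in PAE, CON and PF, lay 83 regions, while 267 regions just outside had 6, 3 and 3, 119 had 7, 4 and 3, and 130 had 7, 3 and 4. CON had more peaks than PF at 127 gained regions, PF had more than CON at 108, and the counts were equal at 152.

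Each PAE library had a peak at 256 to 310 of the gained regions (median 272.5), each CON library at 72 to 119 (median 85) and each PF library at 64 to 115 (median 90.5). Every PAE library lay above every CON and PF library. The rule bounds the number of calls per region over a group, and so holds the group means far apart. The separation of single libraries largely follows from this choice and is described without a test. The CON and PF ranges overlapped almost fully. Per 1000 autosomal peaks, PAE libraries had 2.11 ± 0.329 peaks in gained regions, CON libraries 0.612 ± 0.102 and PF libraries 0.618 ± 0.0677 (SD, n = 10 each). The lowest PAE count, 256, belonged to the animal labelled male of litter E3, the library with the fewest peaks, and both animals of litter E6 had the highest counts, 302 and 310.

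**Figure D2:**
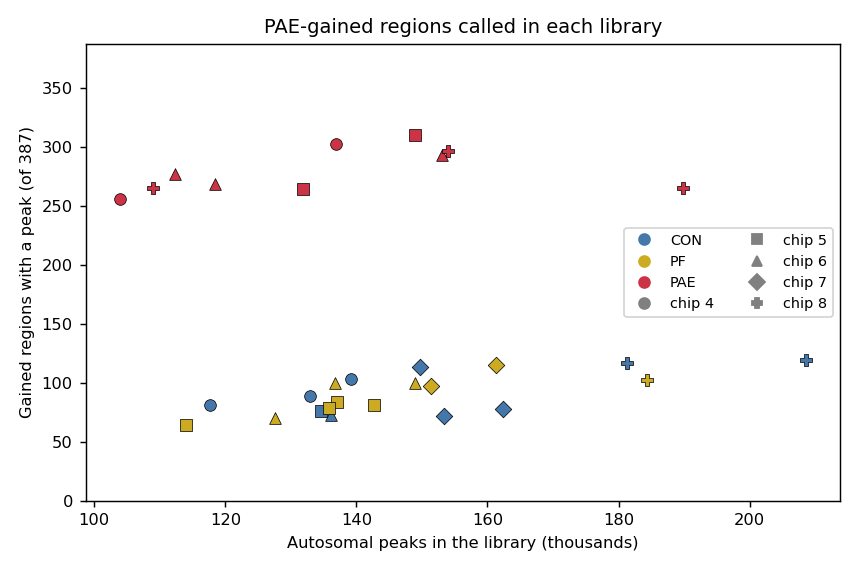
Number of the 387 gained regions with a called peak (y axis) against the autosomal peaks of each library in units of 1000 (x axis), 1 point per library, coloured by group and shaped by sequencing chip. PAE libraries lie between 256 and 310 and CON and PF libraries between 64 and 119.

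The values within chips are given as descriptions, since the calls of these same libraries chose the regions and largely fix a higher PAE share on each chip. On chip 5 the called share of gained regions averaged 74.2% in 2 PAE libraries, 19.9% in 4 PF libraries and was 19.6% in the single CON library. On chip 6 it averaged 72.2% in 3 PAE and 23.2% in 3 PF libraries and was 18.9% in 1 CON library, and on chip 8 it averaged 71.2% in 3 PAE and 30.4% in 2 CON libraries and was 26.4% in 1 PF library. On these 3 chips, which hold 20 libraries of all groups, the PAE share was above both others at 382 of the 387 regions. Chip 4 gave a mean of 72.0% in 2 PAE and 23.5% in 3 CON libraries, while chip 7, without PAE, gave 22.7% in 3 CON and 27.4% in 2 PF libraries. CON shares were highest on chip 8, where the CON libraries also had the most peaks, 181282 and 208631, and the part of peak number in this was not tested. With the 5 libraries of chip 7 left out and the thresholds kept, 1669 regions met the rule for PAE, 43 for CON and 252 for PF, so the order of the groups turned round. This setting leaves 7 CON, 8 PF and 10 PAE libraries under fixed thresholds, which a PAE-gained region passes more easily and a CON-gained region only with a peak in every CON library.

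**Figure D3:**
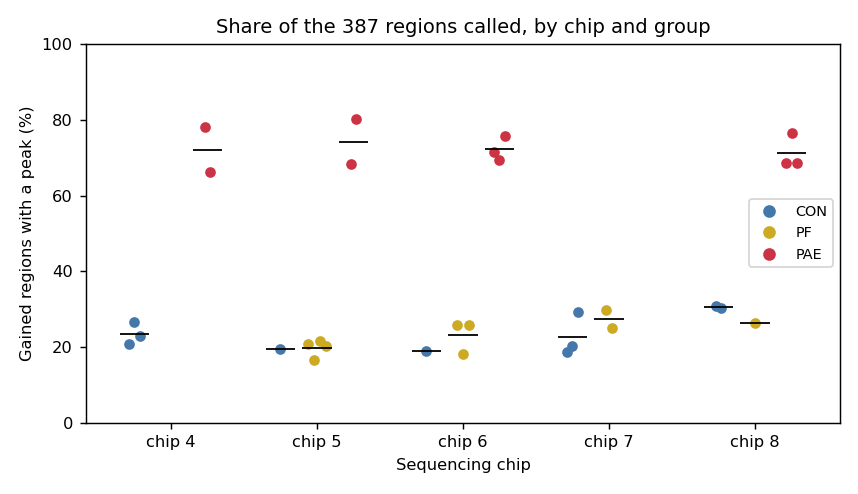
Percentage of the 387 gained regions with a called peak in each library (y axis), by sequencing chip (x axis) and group, with 1 point per library and bars at the mean. PAE libraries range from 66.1 to 80.1% on the 4 chips that hold them, and no CON or PF library on any chip exceeds 30.7%.

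In length and shape the gained regions resembled other regions called in as many libraries. Their length ran from 298 to 1923 bp (median 564 bp), against 574 bp in the 94217 other regions with a peak in 8 to 15 libraries, the range that the gained regions span, and 544 bp over all tested regions. A called peak covered a median of 60.5% of a gained region, and its summit lay a median of 25 bp from the region's median summit, against 60.0% and 27.5 bp in the other 8 to 15 library regions. More than 1 peak of a library fell in a region at 12 gained regions (3.1%), compared with 3.63% of the other regions with a peak in 8 to 15 libraries and 12.2% of those lost only in PAE.

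Where a peak was called, its height had a similar median in all groups. The median height of a called peak at a gained region was 0.749 in PAE, 0.779 in CON and 0.783 in PF, and the medians in the other 8 to 15 library regions were 0.747, 0.791 and 0.732. Fold enrichment over the local background was also alike, with medians of 4.19, 4.25 and 4.27, as was the −log10 q-value, with 3.93, 3.98 and 4.12. At 355 of 387 gained regions at least 1 CON or PF library had a higher peak than the PAE median of called peaks, and at 192 it exceeded the highest PAE library. The counts of 355 and 192 were not set beside other regions. The groups differ by the rule in how many animals had a called peak, and the heights of called peaks overlapped. Heights below the calling threshold were not measured, so similar heights of called peaks do not show whether the signal was alike.

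Most of these peaks stood near the lower limit of detection, and this was not particular to the gained regions. The median height of a called PAE peak was 0.749 here and 0.747 in the other regions with a peak in 8 to 15 libraries. The median height over the PAE libraries with a peak ranged from 0.453 to 5.66 among the gained regions, and it was under 2 times the floor at 282 of them. At 14 regions (3.62%) every called peak of any library reached 2 times the floor, 0.877, compared with 3.0% of the other regions with a peak in 8 to 15 libraries. Of the called peaks at gained regions, 87.8% also passed a q-value of 0.01, compared with 91.2% over all tested regions. With libraries without a peak at the floor, the ratio of mean heights of PAE over CON had a median of 1.26 (quartiles 1.17 and 1.41, range 0.804 to 2.38), and that of PAE over PF a median of 1.28 (quartiles 1.17 and 1.42, range 0.999 to 4.51). At 33 regions both ratios reached 1.5, while at 7 regions the mean in PAE did not exceed that in CON and at 1 region that in PF.

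The 12 regions with the largest excess of PAE calls over CON and PF calls show what the clearest patterns looked like. None of them was free of peaks in both comparison groups, and none was called in every PAE animal. All ranks below are by this excess, which ran from 6 down to 1.

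The first-ranked region lies on chromosome 19 at 222331 to 222673 (Rn6). Its PAE peaks had heights of 2.06, 2.04, 2.02, 1.9, 1.74, 1.7 and 1.36 in 7 libraries from all 5 litters, and its one CON peak, in the animal labelled female of litter C46, was higher at 2.15. No PF library had a peak, so the groups overlapped through 3 PAE libraries at the floor and 1 CON library above all PAE values. The mean height was 1.41 ± 0.704 in PAE, 0.609 ± 0.541 in CON and at the floor in all PF libraries (SD, n = 10 each).

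The second region, on chromosome 4 at 177619269 to 177620128, had 7 PAE peaks between 1.01 and 1.29, none in CON and 1 PF peak of 1.51. The third, on chromosome 7 at 132114303 to 132114691, had 8 PAE peaks between 0.788 and 1.57, 1 CON peak of 1.69 and 1 PF peak of 1.24. In each of these 3 regions the highest value of all belonged to a CON or PF animal. The fourth region, on chromosome 5 at 71983271 to 71983870, was called in 9 PAE libraries with heights from 0.475 to 0.965, in 1 CON library at 0.582 and in 2 PF libraries at 0.552 and 1.02. Its PAE values ranged from the floor to 0.965 with a median of 0.764, and its CON and PF medians were at the floor.

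Further down, the fifth region (chromosome 2, 47452629 to 47453003) had 7 PAE peaks of 0.404 to 1.15, the lowest of them under the common floor, and 1 PF peak of 0.846. Rank 6 (chromosome 9, 12328206 to 12328630) held the tallest peaks of the 12, with 8 PAE heights of 1.72 to 3.3 and 3 CON heights of 1.51 to 3.83, and no PF peak. Its PAE mean of 1.98 ± 0.938 compares with 1.06 ± 1.15 in CON (SD, n = 10 each), a difference smaller than the SD of CON and of PAE. Rank 7 (chromosome 1, 278392107 to 278392537) had 7 PAE peaks of 1.03 to 1.36, with all 5 animals labelled female and 2 labelled male, 1 CON peak of 1.23 and 1 PF peak of 1.1. Ranks 9 and 10 each lacked peaks in one of the comparison groups. Rank 9 (chromosome 11, 83467199 to 83468040) had 8 PAE peaks of 0.875 to 1.74, 3 CON peaks of 0.86 to 1.36 and none in PF, and rank 10 (chromosome 7, 25696133 to 25696884) had 7 PAE peaks of 0.803 to 1.22, none in CON and 2 PF peaks of 1.2 and 1.45. Rank 11 (chromosome 7, 119966518 to 119967023) had 7 PAE peaks of 0.604 to 1.24, a CON peak of 1.44 and a PF peak of 0.806. Rank 12 (chromosome 10, 23889743 to 23890239) had 7 PAE peaks of 0.543 to 1.03, CON peaks of 0.711 and 0.883 and none in PF.

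**Figure D4:**
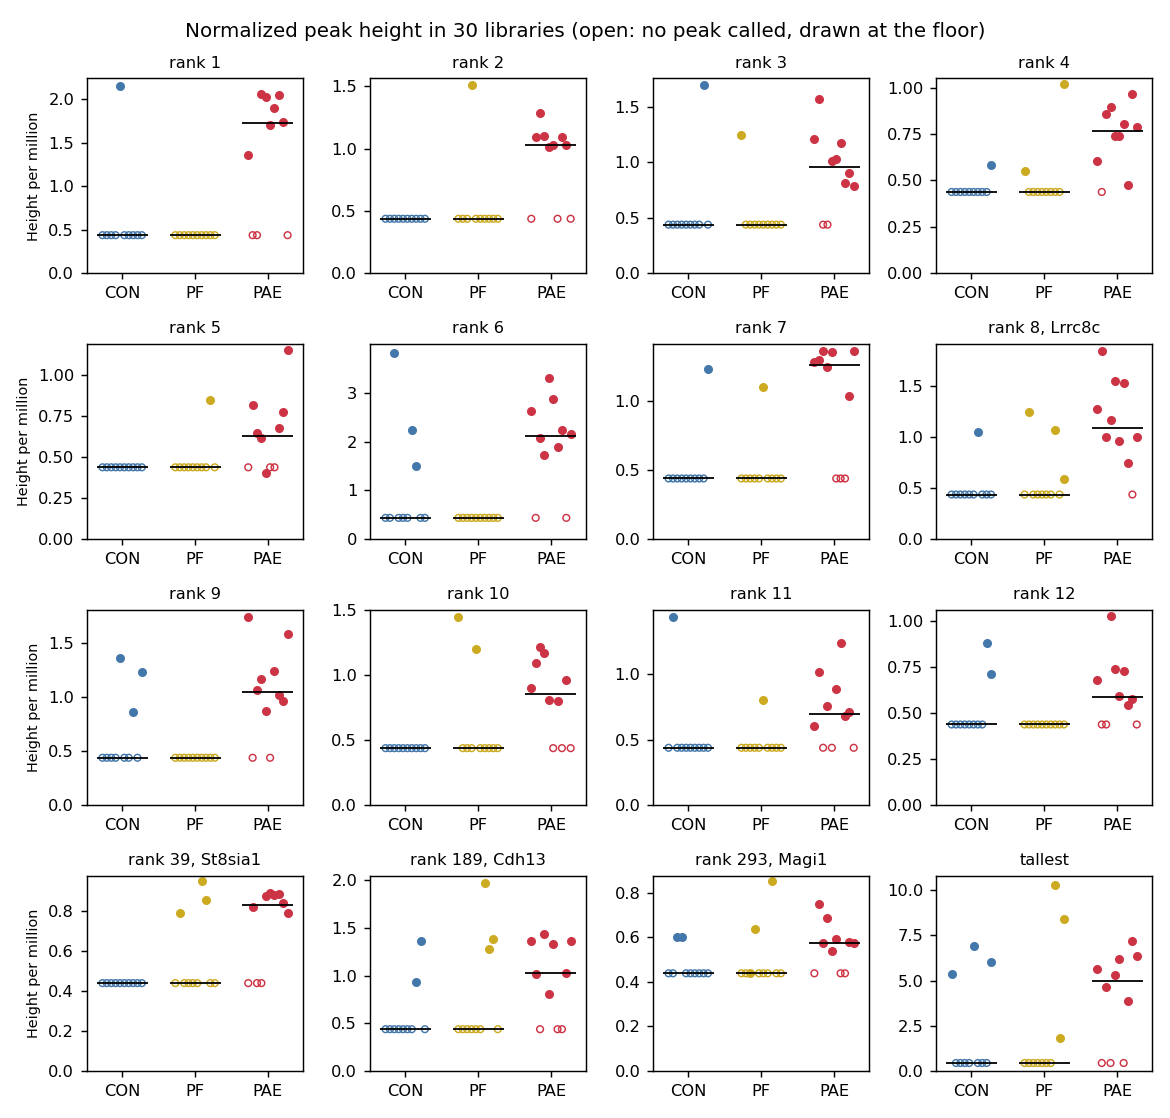
Normalized height (y axis, coverage per 1000000 filtered fragments) in all 30 libraries for the 12 first-ranked regions, those placed at St8sia1, Cdh13 and Magi1, and the tallest region, by group (x axis). Filled points are called peaks, open points libraries without a peak drawn at the floor of 0.438, and bars the group medians, which sit at the floor for CON and PF in every panel.

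Genes could be named for 4 gained regions from the study's tables of regions that it called differentially methylated at a false discovery rate (FDR) under 0.05. These tables list 4 gained regions with the same start and end, 3 of them inside an intron of a gene. They also place 2 regions of the same gene on either side of another gained region. The naming thus depends on the study's own tests of these animals. The eighth-ranked region lies in an intron of Lrrc8c, which encodes a subunit of the volume-regulated anion channel, on chromosome 14 at 5324628 to 5325065. It was called in 9 of 10 PAE libraries, with heights of 1.84, 1.55, 1.53, 1.28, 1.17, 1.0, 1.0, 0.96 and 0.747, in 1 CON library at 1.05 and in 3 PF libraries at 1.25, 1.07 and 0.586. Only the animal labelled male of litter E6 lacked a peak in PAE, and 2 of the 3 PF peaks fell within the range of the PAE peaks, the third below it. The PAE mean was 1.15 ± 0.414, the PF mean 0.597 ± 0.302 and the CON mean 0.5 ± 0.195 (SD, n = 10 each). Fitted with labelled sex and chip as terms, the log2 difference of PAE was 1.24 ± 0.25 (SE) from CON and 0.88 ± 0.25 from PF.

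An intronic region of St8sia1, the gene for the GD3 ganglioside synthase, lies on chromosome 4 at 177113071 to 177113591. Its 7 PAE peaks had nearly one height, from 0.788 to 0.886, no CON library had a peak, and the 3 PF peaks of 0.787, 0.854 and 0.947 were as high. Calls came from 5 animals labelled male and 2 labelled female in PAE. The fitted log2 difference was 0.67 ± 0.20 (SE) from CON and 0.38 ± 0.20 from PF.

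An intronic region of Magi1, which encodes a scaffold protein of cell junctions, lies on chromosome 4 at 126141640 to 126142264. Its peaks were low in all groups, with 7 PAE heights of 0.538 to 0.749, 2 CON heights of 0.601 and 3 PF heights of 0.439, 0.636 and 0.854. The region between 2 regions of Cdh13, the gene for T-cadherin, a cadherin held in the membrane by a lipid anchor, is at 51522929 to 51523311 of chromosome 19. It had 7 PAE peaks of 0.808 to 1.44, 2 CON peaks of 0.932 and 1.36 and 3 PF peaks of 1.28, 1.39 and 1.97, so the highest library was a PF animal. The Cdh13 region was ranked 189 of 387 and the Magi1 region 293, and the PAE mean of 0.56 ± 0.105 at Magi1 lay within 1 SD of the PF mean of 0.5 ± 0.139 (n = 10 each).

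The tallest and the longest gained regions were both at the edge of the rule. The tallest, at 11975552 to 11975870 of chromosome 1, had PAE heights of 7.21, 6.38, 6.2, 5.66, 5.32, 4.65 and 3.87, CON heights of 6.91, 6.01 and 5.37 and PF heights of 10.3, 8.42 and 1.81. The other 17 libraries had no peak there, so an animal had either a peak of at least 1.81 or no called peak. Both litter mates had the peak in litters E1, E3 and E9, and neither had it in E2. Summits of this region fell within a few base pairs of each other, with an SD of 3.88 bp over 13 libraries. The longest, 1923 bp on chromosome 17 at 13271275 to 13273197, had 7 PAE peaks of 0.83 to 1.67, 3 CON peaks of 0.883 to 1.63 and 3 PF peaks of 1.02 to 2.23, and its summits spread with an SD of 573 bp.

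Gained regions were spread over all 20 autosomes, from 10 regions on chromosome 13 (0.0682% of its tested regions) to 42 on chromosome 1 (0.116%), with the highest share, 0.161%, on chromosome 19. They did not form runs. Only 5 pairs of neighbours lay at most 100 kb apart, no 3 regions did, and the median distance between neighbours on a chromosome was 3963930 bp. The closest pair, on chromosome 1 at 261844675 to 261845497 and 261876293 to 261876993, was 30795 bp apart.

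The regions next to the gained regions were fitted close to all other tested regions. Heights were fitted on the log2 scale with limma, with group, labelled sex and chip as terms. At the gained regions the median fitted difference was 0.35 for PAE minus CON and 0.35 for PAE minus PF, against medians of -0.054 and -0.023 over all tested regions. Of the gained regions, 371 had another tested region within 10 kb, and these 1212 neighbours had medians of -0.07 and -0.027. PAE was fitted higher than CON at 34.7% of the neighbours and at 36.6% of all other tested regions, and higher than PF at 44.1% and 43.6%. Even at under 2 kb the median difference from CON was -0.083 (231 neighbours), and no class of distance had a median above 0.

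**Figure D5:**
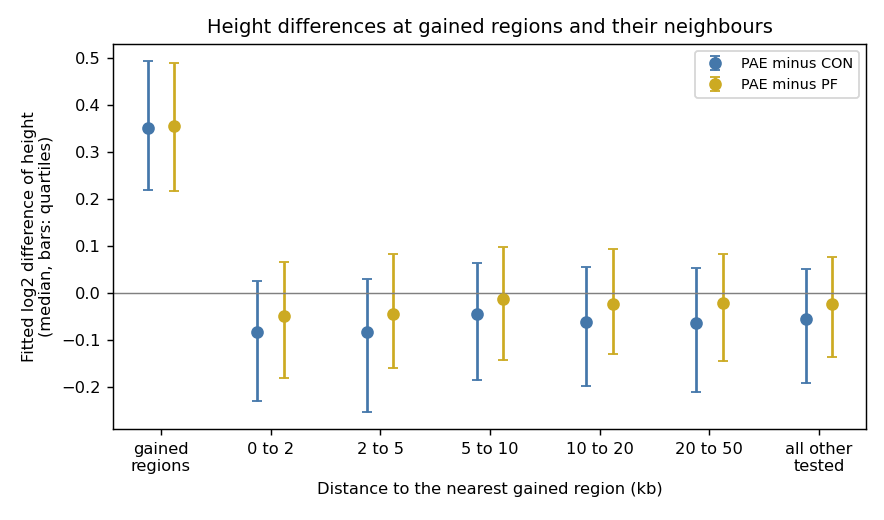
Fitted log2 differences in normalized height (y axis) at the gained regions, at tested regions by distance to the nearest of them in kb (x axis) and at all other tested regions. Points are medians and bars quartiles for PAE minus CON and PAE minus PF; gained regions have medians of 0.35 and every class of neighbours has a median below 0.

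The rule used the contrasts of PAE with CON and PF, so the following counts are descriptions. By limma with Benjamini-Hochberg adjustment over all tested regions, 0 of 387 gained regions passed an FDR of 0.05 for PAE against CON, where 0.000284% of tested regions did (1 region, lower in PAE), and 0 passed for PAE against PF, where 0.0% did. At an unadjusted p under 0.05 with PAE higher, 131 gained regions passed against CON (33.9%, with 1.34% of all tested regions) and 136 against PF (35.1%, with 1.51%). The smallest adjusted p of a gained region was 0.661 against CON and 0.988 against PF in these limma fits. The fitted value was positive at 382 and 385 of the 387 regions. PF and CON, both held to at most 3 calls by the rule, differed by a median of 0.01 at the gained regions, where 0 regions passed the FDR (0.0% of tested regions) and 2 passed the unadjusted threshold (0.517%, with 6.46% of all tested regions).

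Labelled sex and litter were not used to choose the regions, but the rule bounds both comparisons. It asks for more PAE libraries than the 5 of either labelled sex, so every gained region had PAE calls from both. A gain confined to a single labelled sex could not be counted. The tests by label thus cover only differences among regions called in both, and cannot decide whether such gains exist. In PAE, animals labelled female had peaks at 264, 265, 296, 302 and 277 of the gained regions and animals labelled male at 268, 265, 256, 310 and 293. The ranges overlapped, and the means of 280.8 and 278.4 differed by 2.4 regions (exact permutation test over the 10 libraries, two-sided p = 0.841). In this test 4 of the 5 animals labelled female and all 5 labelled male had the low share on X. The test thus cannot decide on a difference between sexes. With litter mates paired, the differences of female minus male by label were -4 in E1, 0 in E2, 40 in E3, -8 in E6 and -16 in E9, so litter E3 alone gave a positive one. PAE calls came more often from animals labelled female at 182 regions and from animals labelled male at 171, with equal numbers at 34. At 22 regions all 5 animals labelled female and 2 labelled male had a peak, and at 18 regions the reverse held. These are the most uneven splits that the rule allows.

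In the limma fit, the difference between labelled sexes over all groups passed the FDR at 0 gained regions (0.0% of tested regions), and at an unadjusted p under 0.05 it passed at 24 (6.2%, with 5.12% of all tested regions). The difference in the PAE effect against CON between labelled sexes passed at 0 (0.0%) and at 20 (5.17%, with 4.87%). Both shares were near those of all tested regions, and the smallest adjusted p by limma was 0.854 and 0.942. A sex label that goes against the sex chromosomes in 18 libraries limits both comparisons. The rule limits them too, since a region gained in a single labelled sex could not be counted. Litter and group come from the same labels and were not checked here, so the comparisons over litters take them as given.

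All gained regions were called in at least 4 of the 5 PAE litters, 260 in all 5 and 127 in 4, which a minimum of 7 animals from litters of 2 requires. Both litter mates had a peak in 2 litters at 188 regions, in 3 litters at 184 and in 4 litters at 15. In PAE, both or neither of the litter mates had a peak at 57.6% of the gained regions on average. Litters ranged from 54.0% in E2 to 65.9% in E6. All pairings of an animal labelled female with one labelled male, the litter mates included, agreed at 56.4%. The difference of 1.26 percentage points gave p = 0.0833 in an exact permutation test over the 120 pairings (one-sided, 0.25 after adjustment over 3 groups), and the smallest p this design allows is 0.0083. In CON the agreement was 61.2% against 60.5% and in PF 61.2% against 62.1% (exact permutation p = 0.308 and 0.95, adjusted to 0.462 and 0.95). Over all tested regions, litter mates agreed at 67.2% in PAE, 66.3% in CON and 67.5% in PF. All pairings there gave 68.0%, 65.6% and 67.5%. The rule bounds the calls per group at gained regions, and so also this agreement. No group passed the threshold, and a higher agreement of litter mates by a few points could be missed with 5 litters. The litter mates of E2 were both on chip 8 and those of E9 both on chip 6, and the part of the chip in their agreement was not tested.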

How the data were processed

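Peaks from meDIP-seq of 30 PFC libraries were used. Reads had been aligned by the authors (BWA, Rn6), filtered (SAMtools) and turned into peaks of each animal alone by MACS2, 2.1.4 per the file headers, at a q-value of 0.05 and with no control library. As deposited, the signal of a peak is its pileup, the unscaled fragment coverage at its summit. The deposited −log10 q-value served only for a stricter threshold and the deposited fold enrichment (a ratio) only for description. The authors' read counts were not used here, and their differential tests entered only through the tables that gave the gene names.

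Groups, labelled sex, litter and chip came from the labels. Autosomal peaks overlapping by 1 bp were merged, heights were scaled to 1000000 filtered fragments, and missing or lower values were set to the highest of the libraries' lowest heights, 0.438. With limma 3.58.1 (R 4.3.3), log2 heights of 352026 regions were modelled on group, labelled sex and chip with a trended prior, and p-values were adjusted by Benjamini-Hochberg. Litters were relabelled exhaustively in Python 3.11.15 with numpy 2.4.6. Both steps were tested on simulated data, and figures used matplotlib 3.10.9. For the fit, the simulated libraries had no litter or chip structure. The planted changes were larger than the median fitted difference at the gained regions, so power at that size was not tested. Samples are separate animals. The members and lists were chosen with earlier results of these data known. Named regions are the 12 with the largest PAE minus CON minus PF calls (ties by PAE height), those the study's tables tie to a gene, and the longest, tallest and closest ones. Alternatives were other peak thresholds, floors, scalings, filters and terms, a litter effect, and libraries left out. No sequence is shown, since no Rn6 genome was used here. The GRCr8 tables differ in build, so most regions carry no gene name.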

Additional observations from a re-analysis of the deposited data

Results flagged for a closer look

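Among 20 sets of heights and counts checked for a single sample far from the rest of its group, 3 held one, all of them heights of called PAE peaks. The limit is a critical value set for chance to pass in about 1 in 20 groups, a rate not measured here. At the second-ranked region, on chromosome 4, the animal labelled female of litter E3 had a height of 1.29, while the other 6 PAE peaks lay between 1.01 and 1.1. At the seventh-ranked region, on chromosome 1, the animal labelled male of litter E6 had a height of 1.03 and the others 1.24 to 1.36. At the twelfth-ranked region, on chromosome 10, the animal labelled female of litter E6 had a height of 1.03 and the others 0.543 to 0.74. Each of the 3 regions had exactly 7 PAE peaks, the minimum of the rule, so each of them, the outlying one included, was needed for the region to be counted.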

How the results depend on the processing

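The number of gained regions rests on the thresholds. It was 12 with 8 or more PAE and at most 2 CON and 2 PF libraries, 3955 with 6, 4 and 4, and CON had more gained regions than PAE under both (47 and 8213). Without chip 7 it was 1669, against 43 in CON and 252 in PF, the reverse of the order over all libraries, with the thresholds kept for 7 CON and 8 PF libraries. With a library left out it ranged from 143 to 560, from 143 to 196 without any one of the 10 PAE libraries (143 without the animal labelled male of litter E6) and from 471 to 560 without a CON or PF library, as the thresholds stay fixed while fewer libraries are counted. It stayed within 1.5 times of 387 with q below 0.01 (322), 50% of the region covered (298), heights at or above the floor (378) and peaks cut to 100 bp on each side of the summit (407). The exact permutation p was between 0.89 and 0.935 under the first 3 of these and both other thresholds, and was not computed for the summits or without chip 7. Of the 322 and 298 regions, 199 and 160 were among the 387. The difference between labelled sexes changed sign to -1.0 with q below 0.01 and to -4.8 with the floor, and ranged from -3.2 to 10.3 with a PAE library left out. The excess of agreement between PAE litter mates was -1.44 points with q below 0.01 and 0.0 with the floor, and from 0.517 to 2.03 points with a litter left out, the latter without litter E9 (exact permutation p = 0.0417, the smallest that 4 litters allow). The cause was not tested. No gained region passed the FDR for any limma contrast under any alternative. This includes the 4 gained regions that the study lists as differentially methylated. The study modelled read counts, while heights of called peaks with a floor were fitted here. Of 1176 alternative log2 differences of named regions none changed sign, and 32 moved by more than 1 SD, all with libraries without a peak at 0 and a pseudocount of 0.1. With litter mates paired by dam as a replicate block, a test added after the data were seen, the difference between labelled sexes stayed 2.4 ± 21.8 regions (SD of 5 litters, exact permutation p = 1.0, smallest possible 0.0625). Treatment groups could not be paired by litter, since no litter has animals in more than 1 group. PF dams were fed by the intake of a PAE partner, but the labels do not name the partners, so such pairs were not used.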
